A study of Homo sapiens with 4 samples.

Results

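The 8 keratin genes KRT7, KRT8, KRT10, KRT18, KRT19, KRT80, KRT81 and KRT86 were followed in the human RNA of PANC-1 tumours. They were chosen by name from the 36601 human genes counted, among which 55 were keratin genes. PANC-1 is an established human pancreatic ductal adenocarcinoma line, and the tumours grew under the skin of nude mice, which lack T cells. The 4 groups were control, agrimoniin, erlotinib and agrimoniin with erlotinib, here called combination, with 1 single-cell library each. Agrimoniin is a plant ellagitannin, and erlotinib inhibits the tyrosine kinase of the EGF receptor. No dose, time, age or number of mice was among the labels. The design text lists cyranin among the compounds in the place of erlotinib alone, and the sample labels were used. The study's title asks how the drugs together act on tumour growth. The question followed here is which keratins the tumour cells transcribed, how evenly, and whether the treated libraries differed.

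Keratins build the intermediate filaments of epithelial cells. A type I chain must pair with a type II chain to form a filament, and simple epithelia such as the pancreatic duct use KRT8 and KRT18, with KRT7 and KRT19 added in ducts. KRT10 is the type I keratin of differentiating epidermis. KRT80 is a type II keratin found in many epithelia, and KRT81 and KRT86 are type II hair keratins that some carcinomas transcribe outside hair.

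Every barcode held human and mouse UMIs (unique molecular identifiers, which count captured RNA molecules). The human UMIs of a barcode are called its human part, which holds tumour RNA but need not be 1 cell. Of 1013 kept parts, 193 were from control, 283 from agrimoniin, 292 from erlotinib and 245 from combination. They held 2420470 to 3775711 human UMIs per library, and no barcode was shared between libraries. Levels are given as CPM, the UMIs of a gene per 1e6 human UMIs, with exact Poisson 95% intervals that cover counting error only. With 1 library per group no test across samples exists, and each difference compares 2 libraries, not 2 treatments. The 3 comparisons with control share that library. In such sums, fewer cells making a transcript and less transcript per cell cannot be told apart.

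The label was checked against markers of the line. VIM, the intermediate filament gene of mesenchymal cells, had a mean of 5867 CPM, and its UMIs were 22.8 to 29.6 times those of all 8 keratins together. EPCAM, an epithelial surface gene, had a mean of 21.6 CPM. CDH1, the E-cadherin gene, had 19 UMIs in all 4 libraries. The ductal keratins KRT7 and KRT19 were at or near 0, so the ductal markers went against the label while KRT8 and KRT18 were present. CDKN2A, which PANC-1 is known to lack, had 0 UMIs in 1013 parts, which allows a share of up to 0.296% of parts with a UMI and does not limit the share that transcribe it. It was chosen after its values were seen.

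KRT81 and KRT86 lie on opposite strands of chromosome 12 and are close copies of each other. Over their coding regions, of 1515 and 1458 bases in GENCODE 29 (GRCh38), the aligned identity was 89.6%, with an identical run of 605 bases. Of all 50-base stretches of the transcript, 44.6% in KRT81 and 40.5% in KRT86 also occurred in another annotated gene, but 0% of those in the last 400 bases, where tags of a 3′ library fall. The KRT86 gene also overlaps KRT7 on the same strand and KRT81 on the other. Whether the counting used strand was not stated in the labels, so low values of these 3 genes are uncertain.

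The simple-epithelial pair has copies elsewhere in the genome. GENCODE 29 names 50 pseudogenes of KRT8 and 68 of KRT18, and none of them was among the features counted. In the last 400 bases, 29.1% of the 50-base stretches of KRT8 and 28.8% of those of KRT18 recurred in another annotated gene, in every case a pseudogene by name. The shares were 0% for KRT80 and KRT7 and 1.71% for KRT19. KRT8 and KRT18 are neighbours on chromosome 12, at 52897187 to 52949954 on the minus strand and 52948871 to 52952901 on the plus strand, and their annotated ends overlap. How many reads were lost or gained this way was not tested.

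KRT10, KRT18, KRT8 and KRT80 made up nearly all keratin RNA of the tumour cells. The 8 genes together had 570, 820, 937 and 624 UMIs in control, agrimoniin, erlotinib and combination, or 235, 222, 248 and 201 CPM. The other 47 keratin genes had 65 UMIs in all, and 40 of them had none. KRT17 had 29 of the 65 and KRT5 had 21, both keratins of basal epithelium; they were chosen after their values were seen. No other keratin reached a mean of 5 CPM.

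KRT10 had the highest level of the 8 in every library. In erlotinib its interval overlapped that of KRT18 (57.5 to 74.1 CPM), so these genes were not apart there. In erlotinib parts above 10% mitochondrial UMIs, KRT10 and KRT18 had 106 UMIs each. It had 250 UMIs (103 CPM, 90.9 to 117) in control and 315 (85.3 CPM, 76.2 to 95.3) in agrimoniin. In erlotinib it had 285 (75.5 CPM, 67.0 to 84.8), and in combination 226 (72.7 CPM, 63.5 to 82.8). Control was the highest library, and its interval overlapped that of agrimoniin but not those of erlotinib and combination.

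KRT18, the type I partner, had 119 UMIs (49.2 CPM, 40.7 to 58.8) in control and 174 (47.1 CPM, 40.4 to 54.7) in agrimoniin. It had 247 UMIs (65.4 CPM, 57.5 to 74.1) in erlotinib and 165 (53.1 CPM, 45.3 to 61.8) in combination. The erlotinib library was the highest, apart from agrimoniin but overlapping control and combination.

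KRT8, the type II partner, had 89 UMIs (36.8 CPM, 29.5 to 45.2) in control and 133 (36.0 CPM, 30.2 to 42.7) in agrimoniin. It had 176 UMIs (46.6 CPM, 40.0 to 54.0) in erlotinib and 153 (49.2 CPM, 41.7 to 57.7) in combination. Both erlotinib-treated libraries lay above both others, with intervals that overlapped. The ratio of KRT18 to KRT8 UMIs was 1.34 (1.01 to 1.78) in control and 1.31 (1.04 to 1.65) in agrimoniin. In erlotinib it was 1.40 (1.15 to 1.71), and in combination 1.08 (0.860 to 1.35). The 4 intervals of this ratio overlapped.

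KRT80 had 99 UMIs (40.9 CPM, 33.2 to 49.8) in control. It had 164 (44.4 CPM, 37.9 to 51.8) in agrimoniin and 176 (46.6 CPM, 40.0 to 54.0) in erlotinib. In combination it had 62 UMIs (19.9 CPM, 15.3 to 25.6). The first 3 libraries overlapped, and the combination library lay below all of them without overlap.

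The remaining members were scarce. KRT86 had 5, 25, 36 and 12 UMIs in control, agrimoniin, erlotinib and combination, or 2.07, 6.77, 9.53 and 3.86 CPM. In erlotinib, 19 of its 36 UMIs (52.8%) were in 1 part, and without that part the level was 4.52 CPM, below agrimoniin. KRT81 had 4, 5, 11 and 3 UMIs, of which 6 of the 11 in erlotinib were in another single part.

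The ductal keratin KRT7 had 3, 3, 4 and 3 UMIs. KRT19, the other ductal keratin, had 1, 1, 2 and 0; the 0 of 245 parts in combination allows a share of up to 1.22% of parts with a UMI, by the limit of 3 counts, which does not limit the share that transcribe it. No fold is given for KRT7 or KRT19, and at this depth no difference between libraries was detectable for them.

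**Figure D1:**
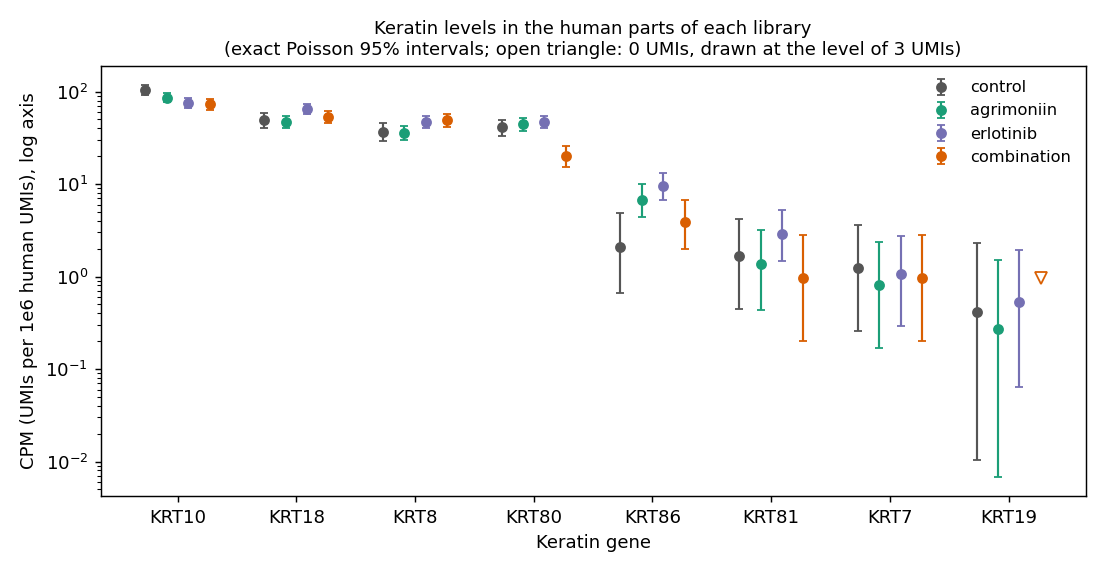
Levels of the 8 keratins as CPM on a log axis, 1 point per library with its exact Poisson 95% interval; the open triangle marks KRT19 in combination, with 0 UMIs, at the level of 3 UMIs. KRT80 in combination, at 19.9 CPM, stands below the other 3 libraries, and KRT7 and KRT19 lie near or under the level of 3 UMIs.

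Levels of different genes were also set per length, although tags of a 3′ library count transcript ends and need not grow with length. In CPM per kb of the longest annotated transcript, control had 48.6 for KRT10, 23.5 for KRT18, 12.8 for KRT8 and 10.5 for KRT80. The order KRT10, KRT18, KRT8, KRT80 was the same per kb in all 4 libraries, with KRT80 divided by 3.89 kb. In CPM not scaled by length, KRT80 and KRT8 changed places in control and agrimoniin, where their intervals overlapped. The longest KRT8 transcript, of 2.86 kb, is not the one with the longest coding region, which has 1687 bases. KRT86 came next after these 4 on both scales in every library.

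Against control, the agrimoniin library showed small differences in the 4 abundant keratins. KRT8 had a ratio of 0.980 (95% interval 0.744 to 1.30), KRT18 of 0.959 (0.755 to 1.22) and KRT80 of 1.09 (0.842 to 1.41). KRT10 was lower at 0.826 (0.698 to 0.980), an interval that leaves out 1. A gene is called here when one library exceeds the other by more than 25%. Among the 4 members with a mean of at least 20 CPM, 0 were called in either direction, although KRT10 was called over parts with at most 10% mitochondrial UMIs, at 0.795. Among all 7172 human genes of that level, 10.6% were called higher and 7.03% lower, and past 1.5-fold the shares were 1.72% and 0.962%.

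In the erlotinib library the simple-epithelial pair was higher than in control and KRT10 was lower. KRT18 had a ratio of 1.33 (1.07 to 1.67), and KRT8 had 1.27 (0.977 to 1.66), an interval that holds 1. KRT10 was 1.37-fold lower (1.15 to 1.63). KRT80 had a ratio of 1.14 (0.886 to 1.47). At more than 25%, 2 of the 4 members were called higher and 1 lower, while 11.1% of all genes were higher and 9.3% lower. None of the 4 was past 1.5-fold, beside 1.98% and 1.72% of all genes. Without the 5% of parts highest for KRT8 its ratio was 1.14, and without the single highest part of each library 1.22. Its call was lost under 5 of 9 other ways of processing, some of which leave out no parts; 1.27 lies close to the threshold. Over parts with at most 10% mitochondrial UMIs the KRT18 ratio was 1.23 and was no longer called.

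The combination library had the largest difference from control among the 4 keratins of at least 20 CPM. KRT80 was 2.05-fold lower (1.48 to 2.87), and KRT10 was 1.42-fold lower (1.18 to 1.71). KRT8 was higher, with a ratio of 1.34 (1.02 to 1.76), and KRT18 had 1.08 (0.848 to 1.38), or 1.27 over parts with at most 10% mitochondrial UMIs, where it was called. At more than 25%, 1 of the 4 members was called higher and 2 lower, while 10.4% of all genes were higher and 9.41% lower. KRT80 alone was past 1.5-fold, as were 1.62% of all genes in the lower direction and 1.73% in the higher.

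The median log2 ratio over the 4 members was -0.04, 0.27 and -0.20 in agrimoniin, erlotinib and combination, beside 0.03, 0.02 and 0.02 over all 7172 genes. In the combination library the median stands between members that differed in opposite directions.

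**Figure D2:**
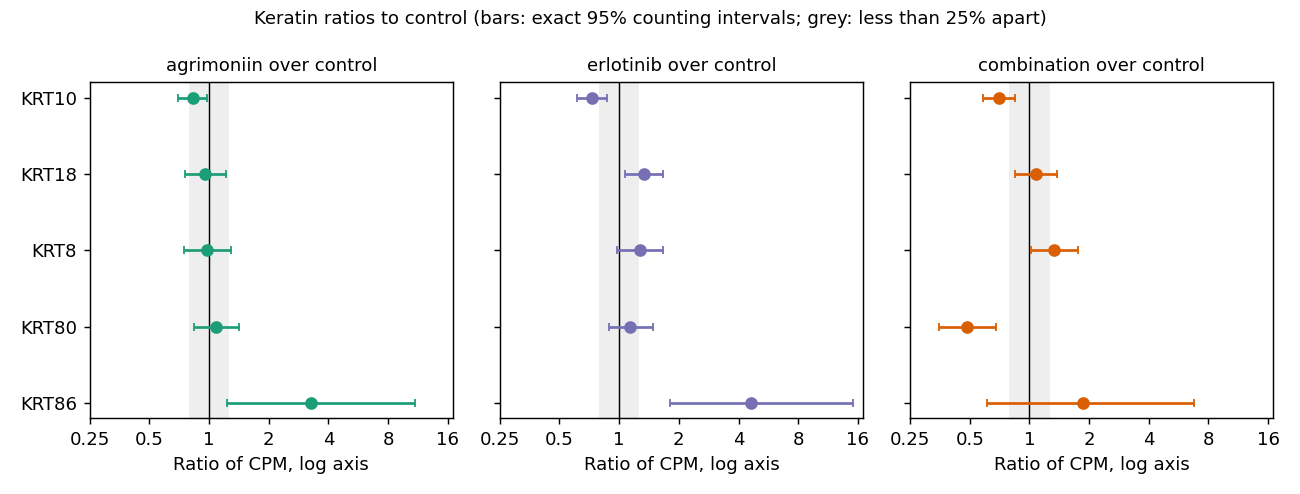
Ratios of CPM to control on a log axis for the 5 most abundant keratins, with exact 95% counting intervals; the grey band marks ratios less than 25% apart. KRT10 lies left of 1 in the 3 panels, KRT80 stands apart at 0.487 in combination, and KRT86 has the widest intervals.

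Between treated libraries, over all kept parts, KRT80 was the member that separated combination from the single drugs. It was 2.34-fold lower (1.74 to 3.18) than in erlotinib and 2.23-fold lower (1.65 to 3.04) than in agrimoniin. As processed here it was the only one of the 4 called between combination and erlotinib, where 7.68% of all genes were called higher and 8.28% lower, and 1.62% and 1.16% past 1.5-fold. Against agrimoniin KRT8 was also called, with a ratio of 1.37 (1.08 to 1.74). There 5.88% of all genes were called higher and 8.09% lower, and 0.655% and 1.06% past 1.5-fold. KRT18 in combination was 1.23-fold lower than in erlotinib (1.01 to 1.51), a ratio of 0.811 that 4 of 9 other ways of processing took past 25%, to 0.773 to 0.780, while over parts with at most 10% mitochondrial UMIs it was 1.03.

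Erlotinib against agrimoniin gave higher levels of both partners. KRT18 had a ratio of 1.39 (1.14 to 1.69) and KRT8 of 1.29 (1.03 to 1.63). Without the 5% of parts highest for KRT8 its ratio was 1.196 and not called. These 2 of 4 were called higher and 0 lower, beside 6.72% and 8.55% of all genes; past 1.5-fold there was no member, beside 0.976% and 1.49%. KRT80 had 1.05 (0.843 to 1.31) and KRT10 had 0.884 (0.751 to 1.04).

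KRT86 was higher than control in both single-drug libraries, on few UMIs. The ratio was 4.62 (1.81 to 15.1) in erlotinib, 3.28 (1.23 to 10.97) in agrimoniin and 1.87 (0.613 to 6.77) in combination. Without the single highest part of each library the erlotinib ratio was 2.72, and over barcodes with at least 2590 mouse UMIs it was 1.44.

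**Figure D3:**
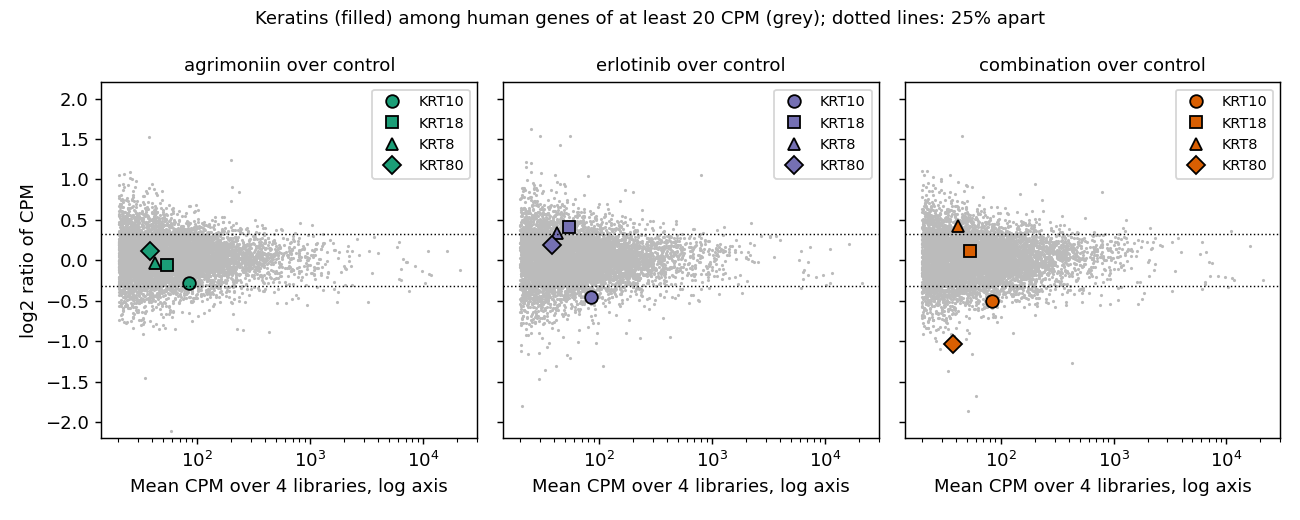
Log2 ratio to control against mean CPM (log axis) for 7172 human genes of at least 20 CPM in grey, with KRT10, KRT18, KRT8 and KRT80 as filled symbols and differences of 25% as dotted lines; 2, 1 and 2 genes lie outside the axis. KRT80 in combination sits at -1.04, at the lower edge of genes of its level.

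The lower KRT80 of the combination library was looked at in subsets of parts. In barcodes with at least 75% human UMIs, KRT80 had 54.0, 53.8, 50.6 and 18.5 CPM in control, agrimoniin, erlotinib and combination, and the last had a ratio to control of 0.342. In barcodes under 75% human, the same libraries had 29.4, 28.9, 39.6 and 24.2 CPM. In the 3 other libraries KRT80 was thus higher where the human share was higher, and in combination it was not. In erlotinib the intervals of the higher and lower human share overlapped (42.0 to 60.4 against 29.8 to 51.7 CPM).

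The mitochondrial share of a part moved with KRT80 in a like way. With at most 10% mitochondrial UMIs, KRT80 had 52.1, 53.8, 56.4 and 19.7 CPM in control, agrimoniin, erlotinib and combination. Above 10% it had 28.2, 30.4, 30.7 and 20.3 CPM. The combination library was thus lowest in each of the 4 subsets, but in 2 of them its interval overlapped those of control, agrimoniin and erlotinib. In barcodes under 75% human it was 14.6 to 37.9 CPM, against 20.8 to 40.4, 20.6 to 39.3 and 29.8 to 51.7. In parts above 10% mitochondrial UMIs it was 12.9 to 30.5 CPM, against 19.3 to 39.8, 22.2 to 40.7 and 22.3 to 41.2. Parts with the higher human share were also deeper, with a median of 16720 against 9677 human UMIs in control; the part of depth in this was not tested.

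The share of parts in which a keratin was found did not follow its level alone. KRT80 had more UMIs than KRT8 in control (99 against 89) and agrimoniin (164 against 133) but was found in fewer parts. KRT10 had at least 1 UMI in 65.3% (58.1 to 72.0, exact Clopper-Pearson interval), 60.8%, 57.9% and 54.3% of parts of control, agrimoniin, erlotinib and combination. KRT8 was found in 31.1%, 28.3%, 32.5% and 40.0%, and KRT18 in 32.6%, 36.7%, 42.5% and 38.0%. KRT80 was found in 22.8%, 25.1%, 28.1% and 17.96%. Between 14.4% and 19.4% of parts had no UMI of any of the 8 genes. Median depths were close, at 11586, 12653, 11926.5 and 11819 human UMIs. Human parts of a kind that should lack keratins were not present, so the share that free RNA alone would give was not measured.

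**Figure D4:**
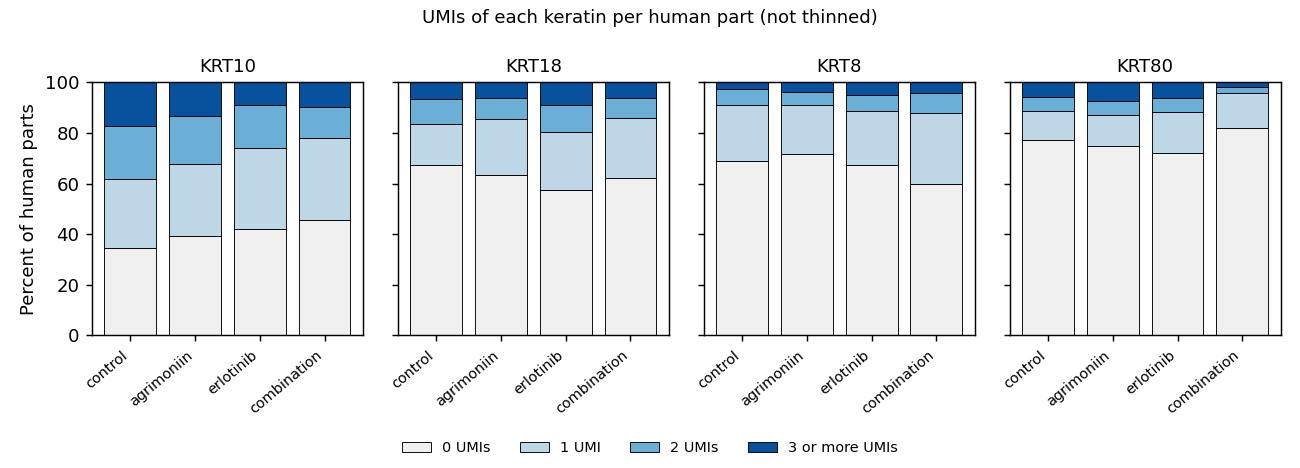
Percent of human parts with 0, 1, 2 or 3 or more UMIs of KRT10, KRT18, KRT8 and KRT80 in each library, not thinned. KRT80 is missing from the largest share of parts, 82.0% in combination, and in erlotinib, where KRT80 and KRT8 both had 176 UMIs, KRT80 is found in 28.1% of parts and KRT8 in 32.5%.

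When each part was thinned to 4000 UMIs, KRT10 was found in 28.0%, 31.4%, 26.1% and 21.6% of parts of control, agrimoniin, erlotinib and combination. At 2000 UMIs the shares were 13.5%, 14.5%, 14.4% and 15.9%, an order that goes against the CPM, so no order of the libraries was read from them. KRT80 had 11.4%, 10.95%, 12.4% and 9.80% at 4000 UMIs and 8.29%, 4.59%, 5.84% and 3.67% at 2000. KRT8 had 13.5%, 11.3%, 14.8% and 15.9% at 4000 UMIs, and KRT18 had 12.4%, 17.7%, 20.3% and 17.6%. One part of the erlotinib library was too shallow for either depth.

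The UMIs of KRT80 lay in few parts. The 10% of parts richest in it held 73.7%, 69.5%, 68.2% and 69.4% of its UMIs in control, agrimoniin, erlotinib and combination. The same measure was 30.8% to 39.4% for KRT10, 50% to 53.8% for KRT18 and 49.0% to 61.6% for KRT8. A gene with fewer UMIs tends to have more of them in 10% of parts, so these shares depend in part on the level. In control, however, KRT80 had more UMIs than KRT8, 99 against 89, and the higher share, 73.7% against 55.1%. At 4000 UMIs per part the variance of KRT80 over its mean was 1.36, 1.71, 1.53 and 0.982, that of KRT8 was 1.36, 1.67, 1.51 and 1.38, that of KRT18 was 1.32, 1.05, 1.68 and 1.32, and that of KRT10 was 1.23, 0.943, 1.03 and 1.15. Counting error alone gives about 1. At 4000 UMIs KRT80 was thus close to KRT8 in the first 3 libraries and lowest of the 4 in combination, and KRT10 was near counting error. At 2000 UMIs KRT80 had 1.33, 1.53, 0.945 and 0.967, and KRT8 had 1.06, 1.64, 1.10 and 1.19. There KRT80 was not close to KRT8 in control, and KRT10 was the lowest in combination, at 0.890. Among genes of like mean, within 1.5-fold, 87.3%, 96.1%, 94.8% and 23.8% were below KRT80 at 4000 UMIs. Single parts held up to 11, 11, 12 and 5 KRT80 UMIs in the 4 libraries.

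KRT18 was found more often in parts that also had a UMI of its partner KRT8. In control KRT18 was present in 43.3% of parts with a KRT8 UMI and in 27.8% of those without. The pairs of shares were 47.5% and 32.5% in agrimoniin, 60.0% and 34.0% in erlotinib, and 49.0% and 30.6% in combination. The intervals were apart in erlotinib and overlapped or met in the 3 other libraries. Parts with a KRT8 UMI were also deeper, with medians of 12686 to 14037.5 against 11016 to 11848 human UMIs. Thinned to 4000 UMIs, the pairs were 26.9% and 10.2%, 25% and 16.7%, 34.9% and 17.7%, and 15.4% and 17.96%. After thinning the share was thus higher beside KRT8 in 3 libraries and not in combination, on 39 parts with KRT8 there.

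**Figure D5:**
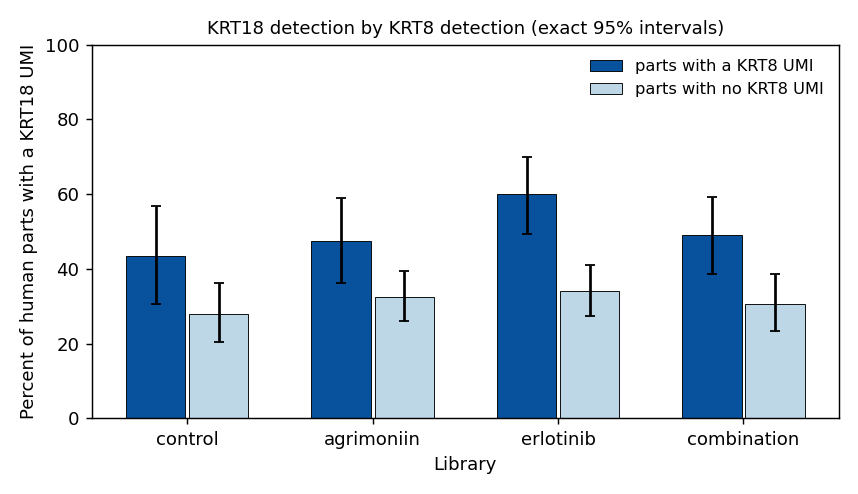
Percent of human parts with a KRT18 UMI among parts with and without a KRT8 UMI, per library, with exact 95% intervals and no thinning. The dark bar is the higher one in the 4 libraries, most of all in erlotinib at 60.0% against 34.0%.

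Correlations over parts were weak, as sparse counts give, and are given as a description without a test. They were computed within each library over parts thinned to 4000 UMIs, 1012 parts in all, and averaged over the 4 libraries. The mean Spearman correlation of KRT8 with KRT18 was 0.11 (-0.01 to 0.19 over libraries), and the 5 other pairs of the 4 genes had means between -0.02 and 0.06. KRT8 had a mean of -0.12 with the summed G2/M genes, below 0 in each library, and KRT18 had 0.04. KRT18 had -0.12 with the summed mesenchymal genes (-0.20 to -0.04 over libraries), and KRT8 had 0.002. Other means were below 0 in each library too, such as KRT8 with S-phase genes (-0.09) and KRT10 with epithelial surface genes (-0.08). KRT18 had 0.11 and KRT8 0.12 with the summed desmosome genes. The points share their library and the competition of all genes for a fixed number of UMIs.

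For the sum of KRT7, KRT8, KRT18 and KRT19, the most alike of 4024 other genes of at least 50 CPM was PERP, a desmosome-associated membrane protein gene, at 0.14. UBE2M at 0.13, ACTN1 at 0.13, PWP1 at 0.12 and STOM at 0.11 followed. The 99th percentile of all candidates was 0.09. For no single member was the median at 1 UMI or more per thinned part, which the rule for single genes required.

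Among the genes of the keratin cytoskeleton, those of the desmosome, the junction that anchors keratin filaments, differed most in combination. Of 17 listed genes 7 reached 20 CPM. In combination against control 5 were called higher and 1 lower, beside 10.4% and 9.41% of all genes, with a median log2 ratio of 0.41, beside 0.02 over all genes. In agrimoniin the counts were 1 and 0 (median 0.20), beside 10.6% and 7.03% of all genes, and in erlotinib 2 and 0 (median 0.06), beside 11.1% and 9.3%. JUP, the plakoglobin gene, had 85.1, 97.5, 123 and 133 CPM in control, agrimoniin, erlotinib and combination. PERP had 1028, 1290, 1370 and 1454 CPM, and the cadherin genes DSG2 and DSC2 had 207 and 187 CPM in control and 267 and 255 in combination. The 1 lower was PPL, the periplakin gene, at 42.1 CPM in control and 29.6 in combination, chosen after its values were seen.

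In combination, other filament and anchor genes differed less than those of the desmosome. Of 15 other intermediate filament genes 5 reached 20 CPM, and 0, 1 and 0 were called lower in agrimoniin, erlotinib and combination, with 2, 0 and 0 higher. Beside these counts, 7.03%, 9.3% and 9.41% of all genes were called lower and 10.6%, 11.1% and 10.4% higher in the same libraries. The median log2 ratio over the 5 genes was 0.20, 0.21 and 0.17, beside 0.20, 0.06 and 0.41 over the desmosome genes. In the single-drug libraries these filament genes thus did not differ less. VIM had 5609, 6272, 5647 and 5941 CPM in control, agrimoniin, erlotinib and combination. LMNA, the lamin A/C gene, had 322, 371, 229 and 335. SYNM, the synemin gene, was past 1.5-fold in agrimoniin, at 60.7 CPM against 40.1, beside 1.72% of all genes higher and 0.962% lower. Of 9 hemidesmosome genes 5 reached 20 CPM, and none was called higher against control. Of 18 genes for keratin binding and turnover 11 did, with 0 higher and 2 lower in agrimoniin, 1 and 3 in erlotinib and 0 and 2 in combination, to be read beside the same shares of all genes.

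Epithelial and mesenchymal genes were compared as the wider setting of keratin transcription. Of 16 epithelial transcription factor genes 3 reached 20 CPM, among them SOX9, a ductal and progenitor factor, with 347, 338, 283 and 387 CPM in control, agrimoniin, erlotinib and combination. KLF4, a factor of epithelial differentiation, had 106, 112, 52.2 and 106 CPM. It was the 1 gene of this list past 1.5-fold, in erlotinib, beside 1.72% of all genes lower and 1.98% higher there. Of 12 epithelial surface genes 6 reached 20 CPM, and 1 was called higher, in combination, and none was lower in any treated library, beside 10.4% of all genes called higher in combination.

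Of 14 mesenchymal genes 9 reached 20 CPM, with 1 called higher and 6 lower in combination (median log2 ratio -0.37), 2 and 4 in erlotinib (-0.29) and 2 and 2 in agrimoniin (0.02). Over all genes, 10.4% were called higher and 9.41% lower in combination, 11.1% and 9.3% in erlotinib and 10.6% and 7.03% in agrimoniin, with medians of 0.02, 0.02 and 0.03. SNAI1, a repressor of epithelial genes, had 61.6 CPM in control and 22.5, 29.4 and 23.8 in the treated libraries. CDH2, the N-cadherin gene, went the other way, with 61.1 CPM in control and 97.3, 93.2 and 82.0 in agrimoniin, erlotinib and combination. SPARC and THBS1, genes of matrix proteins, had 44.2 and 116 CPM in control and 21.7 and 67.8 in erlotinib, where both were past 1.5-fold. Of the 9 mesenchymal genes, 3 were past 1.5-fold lower in erlotinib and 1 higher, beside 1.72% and 1.98% of all genes. Of 24 basal-like and 24 classical genes that subtype pancreatic carcinoma, 3 and 1 reached 20 CPM, so neither list could place these cells.

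Keratin genes of the mouse host were scarce. Mouse Krt8, Krt18, Krt81 and Krt86 had 0 UMIs in the kept mouse parts of all 4 libraries, mouse Krt10 had 1, 2, 2 and 4, and mouse Krt80 had 6, 7, 7 and 6 in control, agrimoniin, erlotinib and combination. Mouse Krt7 had 0, 1, 0 and 2 and mouse Krt19 0, 2, 1 and 11. Of 10 mouse keratinocyte markers 2, 3, 4 and 7 had a UMI, with summed levels of 1.74, 2.99, 3.61 and 83.2 CPM of mouse UMIs. Of 8 markers of simple epithelium or mesothelium 2, 4, 3 and 4 had a UMI, at 5.22, 4.48, 12.3 and 34.9 CPM. All 7 mouse fibroblast markers were found in each library, at 27926 to 34654 CPM, with the 8 macrophage markers at 5872 to 9243 CPM and the 5 endothelial markers at 57.4 to 140 CPM. The part of host RNA in the keratin values was not tested beyond these counts.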

How the data were processed

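Single-cell libraries were made with a 3′ kit, per the labels' protocols, and aligned with Cell Ranger to hg38 and mm10, per the submitters' processing notes; no version was named there. The deposited matrices hold raw UMI counts as whole numbers for each gene in each barcode. How barcodes were selected is not stated in the labels, and their 27 bases are not the layout of the named kit.

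Human parts were kept with at least 500 UMIs, 250 genes and at most 25% mitochondrial UMIs. No doublet caller was run, since each barcode held both species. Counts were summed per library and scaled to CPM. Ratios have exact intervals conditional on the 2 counts, and shares have Clopper-Pearson intervals, at 95%. A gene was called when 1 library exceeded the other by more than 25%, or past 1.5-fold, among genes with a mean of at least 20 CPM. No pseudocount was used, and a count of 0 is given the limit of 3 counts. Ratio intervals were tested on simulated Poisson counts only. These hold no spread between parts or libraries, so how well the intervals cover such spread was not tested. Transcripts were read from GENCODE 29, which held 34616 of 36601 human identifiers; sequence sharing used the transcript with the longest coding region. Python 3.11.15, numpy 2.4.6, scipy 1.17.1, pandas 2.3.3 and matplotlib 3.10.9 were used.

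The 8 genes and all lists were chosen with earlier results of these data known. Genes that could be named were the 8, other keratins of at least 5 CPM, and in each list the 3 most abundant genes and those past 1.5-fold against control. Not all of them were named in the results. Those left out include CTSV of the basal-like list and TGFBI, S100A4 and ZEB1 of the mesenchymal list. Alternatives are given in the closing section. Some results are not reported here.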

Additional observations from a re-analysis of the deposited data

Results flagged for a closer look

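The mouse side of the barcodes, which the keratin comparisons do not use, held a keratin signal in 1 library. Mouse Krt5, Krt14, Krt16, Krt25, Krt28 and Krt75, keratins of skin and hair follicle, had 46 UMIs in the combination library against 1 in control, 2 in agrimoniin and 0 in erlotinib. The 46 UMIs lay in 4 of 249 mouse parts, with 38 of them in 2 parts and 45 in 3. The human parts of those 4 barcodes held 16 UMIs of the 8 human keratins, of 624 in that library. The 6 mouse genes were chosen after their values were seen. With 1 library per group, a difference between libraries and one between treatments cannot be told apart.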

How the results depend on the processing

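No paired analysis was possible because each group has 1 library. The 12 ratios to control of KRT8, KRT10, KRT18 and KRT80 were recomputed under 9 alternatives, of which leaving out the part with the most UMIs of the gene was chosen after seeing the data. Of these 108 values, 107 stayed inside the interval of the reported ratio and 0 of the ratios that differed by more than 25% crossed 1. The exception was KRT80 in combination over control, 0.342 in barcodes with at least 75% human UMIs, further from 1 than the 0.487 reported. Its range was 0.342 to 0.575, and that of KRT10 was 0.645 to 0.726 in combination and 0.692 to 0.767 in erlotinib. KRT8 in erlotinib ranged from 1.14 to 1.45. Parts with at most 10% mitochondrial UMIs added the calls of KRT10 in agrimoniin (0.795) and KRT18 in combination (1.27) and removed that of KRT18 in erlotinib (1.23). Between treated libraries, KRT10 in combination over agrimoniin, 0.852, was called under 2 alternatives (0.759 and 0.791) and KRT18 under 1 (1.37). KRT86 reversed: erlotinib over agrimoniin, 1.41, became 0.468 with a common minimum of mouse UMIs, 0.247 without the 5% of parts highest for the gene and 0.756 without its top part, and combination over erlotinib, 0.405, became 1.30 with the common minimum. The cause was not tested. Levels without mitochondrial and ribosomal protein genes in the total were higher in each library by construction. Thinned shares are limited by depth, since 2000 UMIs per part leave KRT80 in 3.67% to 8.29% of parts. Among list medians, that of epithelial transcription factors in erlotinib moved from -0.29 to -0.66 over genes of at least 50 CPM.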
